A study of Rattus norvegicus with 12 samples.

Results

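The 10 genes described here encode subunits of the G protein beta-gamma dimer: the beta subunit genes Gnb1, Gnb2 and Gnb4 and the gamma subunit genes Gng2, Gng3, Gng4, Gng5, Gng7, Gng12 and Gng13. They were taken by name, as a list, from the 41596 genes of the series, and their level is the deposited TPM (a transcript abundance corrected for length and library total) summed over the transcripts of each gene. The samples are periaqueductal grey from male Sprague Dawley rats, 6 of them morphine-sired and 6 saline-sired. The rats differ by what their sire received. The dose, the timing of the sire's treatment, the age of the offspring and their litters are not given in the labels, and each of the 12 animals is taken as independent of the others in the tests.

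Heterotrimeric G proteins carry the signal of opioid receptors and many other receptors in the periaqueductal grey, a midbrain area of descending pain control. When the receptor is active, the alpha subunit lets go of the beta-gamma dimer, and the dimer itself acts on targets: it opens inwardly rectifying GIRK potassium channels, slows presynaptic calcium channels, binds the release machinery and tunes adenylyl cyclases and phospholipases. A beta subunit is a propeller-shaped protein that is stable only with a gamma partner, and the gamma subunit carries the lipid that holds the dimer on the membrane.

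The depth of a library, read from the ratio of transcript coverage to FPKM, was 4.39 to 6.03 gigabases. Markers of neurons were present at 0.5 TPM or more in every library for 8 of 8 genes listed, and those of periaqueductal grey and midbrain for 8 of 9. The exception, Pax7, was listed at 0 in morphine-sired library 2. It was at 0.442 TPM in saline-sired library 1 and 0.351 TPM in saline-sired library 6. The libraries differed in markers of neighbouring tissue. Morphine-sired library 2 held 1756 TPM of Ttr, a choroid plexus gene, and 103.2 TPM of Slc6a3, the dopamine transporter. Kl and Kcnj13 of the choroid plexus list were also highest there. Folr1, Clic6 and Prlr were instead highest in morphine-sired library 3 and Otx2 in morphine-sired library 5. Saline-sired library 2 held 412.8 TPM of Ttr. It also held 166.3 TPM of Pcp2, 37.6 TPM of Gabra6 and 33.8 TPM of Cbln3, all cerebellar genes. These were at 1.89 TPM or less in the other 11 libraries. Calb1 of the cerebellar list was highest there too. Cbln1 was at 70.0 TPM there (median of all libraries 101.3) and Zic1 at 50.2 TPM (highest 58.6, in morphine-sired library 1). The differences were therefore also computed without morphine-sired library 2 and saline-sired library 2. Tph2, the serotonin-synthesising enzyme of raphe neurons, ran from 0.489 to 194.8 TPM in morphine-sired and from 0.45 to 445.3 TPM in saline-sired libraries. Chat, the acetylcholine-synthesising enzyme, was at 1.15 TPM in morphine-sired library 1, 0.0955 TPM in saline-sired library 1 and 0.569 TPM in saline-sired library 6, against 17.1 TPM or more in the other 9. In such bulk tissue, fewer cells of a type and less RNA per cell cannot be told apart.

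None of the 10 genes differed between morphine-sired and saline-sired rats at an adjusted p under 0.05 (limma on log2(TPM + 1), Benjamini-Hochberg over 24540 genes). In that test 0% of all genes were called, and 3.22% (790 genes) had an unadjusted p under 0.05, as did 0 of these 10. The adjusted limma p was 0.9998 for each of the 10. The mean was higher in morphine-sired rats for 5 of the 10 and lower for the other 5. Their median log2 difference, morphine-sired minus saline-sired, was 0.01, beside -0.00221 over all genes tested. The 2 groups overlapped for each of the 10, and 0.0896% of all genes tested had groups that did not overlap. The 95% interval of the difference lay within 0.5 on the log2 scale for 7 of the 10 genes, all but Gng3, Gng7 and Gng12.

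**Figure D1:**
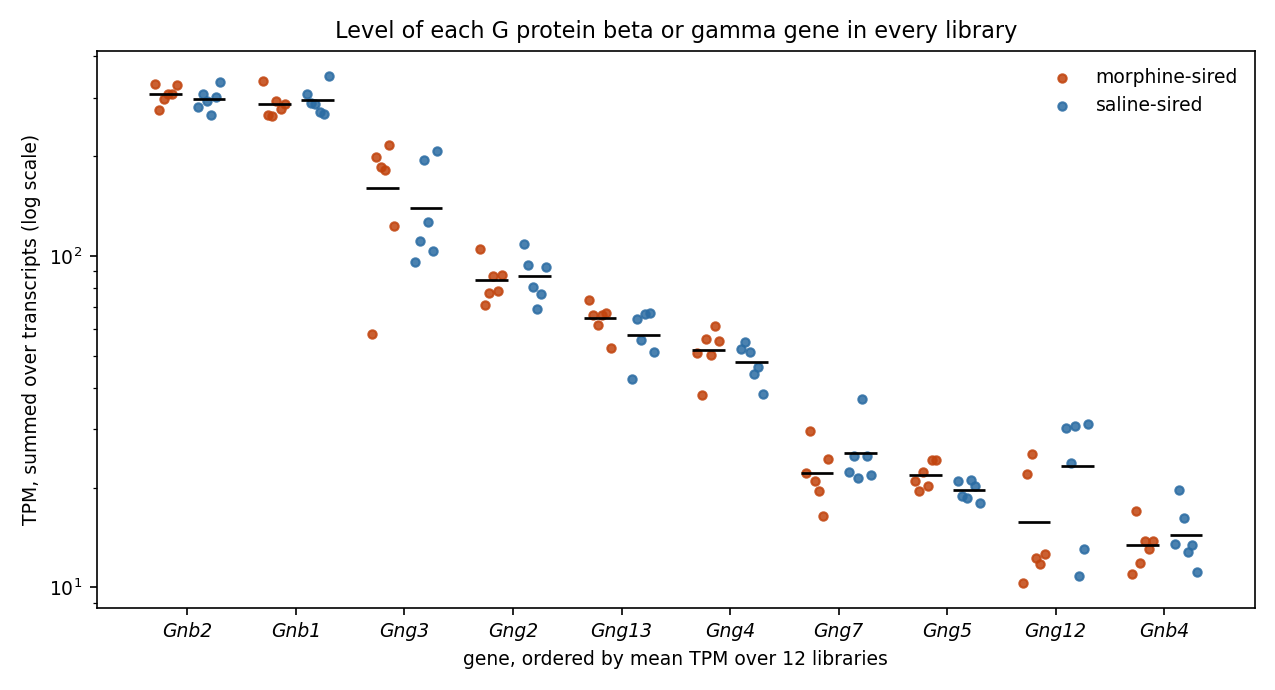
TPM of each gene (log axis) in every library, morphine-sired left and saline-sired right within a gene, with the group mean as a black line and genes ordered by their mean. Gnb2 and Gnb1 stand highest (means 302.6 and 291.4 TPM) with little spread, while Gng3 and Gng12 are the most scattered.

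The beta pool was mostly Gnb1 and Gnb2, which are broadly expressed beta subunits. Gnb2 made up 46.6% ± 1.35 of the summed TPM of the 5 beta genes in morphine-sired rats and 44.8% ± 1.86 in saline-sired rats (SD, n = 6 each). Gnb1 made up 43.5% ± 1.48 in morphine-sired rats and 44.4% ± 1.79 in saline-sired rats (SD, n = 6 each). Gnb4 held 2.05% ± 0.414 in morphine-sired rats and 2.18% ± 0.483 in saline-sired rats. These shares rest on assembled transcripts: with annotated ones alone, the mean share over the 12 libraries was 92.2% for Gnb2 and 6.66% for Gnb1. Beta and gamma shares alike also rest on the length of each model, as given with the order of the genes. The gamma pool was more mixed. Gng3, a neuronal gamma subunit, held the largest mean share, 31.0% ± 9.33 in morphine-sired and 28.0% ± 7.13 in saline-sired rats, followed by Gng2 with 17.1% ± 4.42 in morphine-sired and 17.8% ± 3.32 in saline-sired rats. The Gng3 share counts its annotated transcript alone, and with assembled models of its locus added the group means of Gng3 TPM stand in the opposite order, as given with the gene. Gng13 (12.96% in morphine-sired, 11.9% in saline-sired), Gng10 (11.1% in morphine-sired, 11.9% in saline-sired), which is not among the 10 genes, and Gng4 (10.4% in morphine-sired, 9.84% in saline-sired) came next, and each other gamma gene held under 6% in both groups. With annotated transcripts alone, the mean share over the 12 libraries was 12.2% for Gng4 and 7.04% for Gng13, so their order turns. The shares were not tested. The ratio of summed beta to summed gamma TPM averaged 1.33 ± 0.237 in morphine-sired and 1.36 ± 0.0865 in saline-sired rats. It was highest in morphine-sired library 1, at 1.74, the library with the lowest TPM of the annotated Gng3 transcript. The ratio, too, rests on which models are counted, and so does the order of its group means. Gnb1 averaged 291.4 TPM as summed here and 22.4 TPM by its annotated transcript. Gng3 averaged 150.2 TPM as counted here and 207.9 TPM with assembled models of its locus added.

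**Figure D2:**
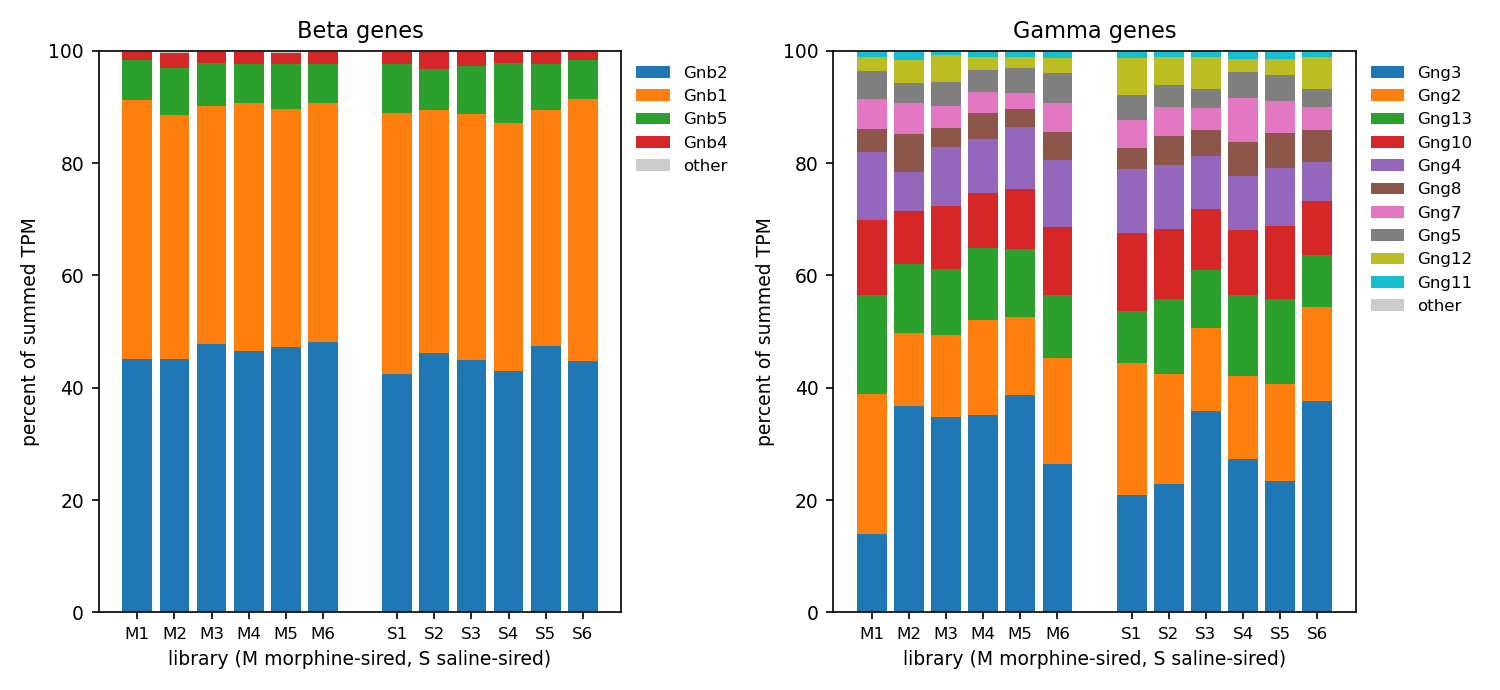
Share of each gene in the summed TPM of the beta genes (left) and gamma genes (right), 1 stacked bar per library, M1 to M6 morphine-sired and S1 to S6 saline-sired. The beta bars are alike, with Gnb2 between 42.4% and 48.2%, while the Gng3 share of the gamma bars runs from 13.9% to 38.6%.

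Over the 12 libraries the genes were ordered, by mean TPM, Gnb2 (302.6), Gnb1 (291.4), Gng3 (150.2), Gng2 (85.6), Gng13 (61.3), Gng4 (49.9), Gng7 (23.7), Gng5 (20.7), Gng12 (19.5) and Gnb4 (13.9). TPM is corrected for the length of each model, and some models have long ends of low coverage. Coverage (mean read depth per base, per gigabase of library depth) averaged 279.1 over an internal exon of Gnb1 and 32.6 over its last region. Over an internal exon it averaged 148.4 for Gnb2 and 222.9 for Gng3, so the order differs by that measure. The neighbours Gnb2 and Gnb1, Gng7 and Gng5, Gng5 and Gng12, and Gng12 and Gnb4 differed by less than the larger SD of the pair. Gng4 exceeded Gng7 in TPM in 12 of 12 libraries with no overlap. Over an internal exon the coverage of the 2 genes overlapped, at 18.4 to 35.9 for Gng4 and 10.3 to 25.1 for Gng7. Gnb1 TPM, as summed here, also exceeded that of Gng3 in 12 of 12 libraries with no overlap. This order rests on which Gnb1 models are counted. The annotated transcript of Gnb1 (ENSRNOT00000041789) averaged 22.4 TPM. Gng3 with assembled models of its locus reached 268.4 TPM in saline-sired library 6, above the lowest Gnb1 value of 264.2 TPM, in morphine-sired library 3. The ranges then overlap, but within each library Gnb1 stayed higher. The closest values were in saline-sired library 5, at 268.3 TPM for Gnb1 and 266.9 TPM for Gng3.

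Among the beta genes, Gnb1 (chr5:172913823-172981403 in Rnor_6.0, plus strand) stood at 336.5, 265.9, 264.2, 293.4, 276.6 and 287.9 TPM in morphine-sired libraries 1 to 6 and at 307.6, 289.2, 286.9, 272.1, 268.3 and 348.5 TPM in saline-sired libraries 1 to 6. The values of the 2 groups largely overlap, and the log2 difference was -0.04 ± 0.07 (SE). The highest 3 values belong to saline-sired library 6, morphine-sired library 1 and saline-sired library 1, the same libraries that were lowest in Chat and Tph2, and whether the marker levels play a part in it was not tested. The 6 serotonergic markers listed summed to 33.1 to 573.6 TPM in morphine-sired and 25.6 to 1181 TPM in saline-sired libraries, and the 5 cholinergic ones to 5.93 to 138.8 TPM in morphine-sired and 3.19 to 117.2 TPM in saline-sired libraries. Fev, a transcription factor that defines serotonergic neurons, was listed at 0 in these 3 libraries and in morphine-sired library 6. Without the 3 libraries, the Gnb1 difference was -0.00838 ± 0.05. Gnb2 (chr12:22229079-22234096, plus strand) ran from 275.5 to 328.9 TPM with a median of 308.1 in morphine-sired libraries and from 265.7 to 335.3 TPM with a median of 297.9 in saline-sired libraries. The saline-sired libraries span the morphine-sired ones. It averaged 307.5 ± 19.9 TPM in morphine-sired and 297.6 ± 23.97 TPM in saline-sired rats (SD, n = 6 each), with a log2 difference of 0.05 ± 0.06 (0.02 without saline-sired library 4 and 0.08 without saline-sired library 6). Gnb4 (chr2:118973710-119008407, minus strand), the least abundant of the 10 genes, ran from 10.9 to 17.0 TPM with a median of 13.4 in morphine-sired libraries and from 11.1 to 19.6 TPM with a median of 13.5 in saline-sired libraries, nearly the same span. It averaged 13.4 ± 2.08 TPM in morphine-sired and 14.4 ± 3.0 TPM in saline-sired rats, with a log2 difference of -0.09 ± 0.13 (-0.00349 without saline-sired library 2 and -0.16 without morphine-sired library 2).

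Most of the Gnb1 and Gnb4 level came from transcripts assembled in the series rather than from annotated ones. Assembled transcripts held 92.3% of Gnb1 TPM and 95.3% of Gnb4 TPM. For Gnb1, the model MSTRG.20176.9, which starts upstream of the annotated start, held 63.5% of the gene's TPM. It stood at 45.1 TPM in morphine-sired library 3, against 178.5 to 232.5 TPM in the other 5 morphine-sired and 125.3 to 254.1 TPM in the saline-sired libraries. In that same library the models MSTRG.20176.11 and MSTRG.20176.12, which start near the annotated start, held 105.2 and 45.9 TPM, while the gene's sum was the lowest of the 12. Coverage of the exonic region at that start (chr5:172934990-172935048) was 0.397 per gigabase in this library, within the 0.0123 to 0.428 of all 12. These models start at base 172935047, near the end of the region. Whether the start used differs in this library was not tested. For Gnb4, the annotated full-length transcript (ENSRNOT00000087803) was listed at 0 in all 12 libraries, and MSTRG.13269.2 held 77.1% of the TPM.

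Among the gamma genes, Gng2 (chr15:4747602-4853555, plus strand), a broadly used gamma partner of Gnb1, stood at 104.9, 71.3, 77.1, 86.9, 78.2 and 87.3 TPM in morphine-sired libraries 1 to 6 and at 108.7, 93.7, 80.3, 69.0, 76.8 and 92.6 TPM in saline-sired libraries 1 to 6. The groups overlap over nearly their whole span (log2 difference -0.04 ± 0.11). The single-exon annotated transcript ENSRNOT00000071133 held 77.0% of this level. It was at 15.2 TPM in saline-sired library 3, where MSTRG.8654.3 held 63.9 TPM and was listed at 0 in the other 11 libraries. Over the shared exonic region (chr15:4850122-4853555), the coverage was close to even, with a log2 difference of -0.02 ± 0.10.

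Gng3 (chr1:225033921-225035687, minus strand) was the most scattered in TPM together with Gng12. It stood at 58.3, 198.8, 184.9, 181.5, 216.0 and 123.3 TPM in morphine-sired libraries 1 to 6, and at 96.1, 110.5, 195.2, 126.7, 103.5 and 207.1 TPM in saline-sired libraries 1 to 6. Both groups hold low and high libraries, and the log2 difference was 0.15 ± 0.31 (95% interval -0.53 to 0.82). It was 0.41 without morphine-sired library 1 and 0.04 without morphine-sired library 5. The coverage (mean read depth per base) of its internal exon (chr1:225034988-225035087), summed over all transcripts of the locus and given per gigabase of depth, was far more even. It was 245.0, 226.2, 206.2, 215.8, 223.2 and 227.4 in morphine-sired libraries 1 to 6, and 190.8, 222.0, 213.7, 219.6, 230.7 and 254.1 in saline-sired libraries 1 to 6. Morphine-sired library 1, the lowest of the 12 in TPM, was the second highest there, and the log2 difference was 0.02 ± 0.07 (95% interval -0.12 to 0.16). Without morphine-sired library 1 and saline-sired libraries 1 and 6, the TPM difference was 0.45 ± 0.21 and that of the internal exon -0.01 ± 0.05.

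The values part at the end of the Gng3 transcript. Over the last exonic region (chr1:225033921-225034717) the coverage was 30.9 in morphine-sired library 1, 7.0 in morphine-sired library 6 and 27.3 in saline-sired library 1, against 78.4 to 99.8 in the other 9. The locus also holds assembled transcripts with no single symbol, because it is shared with Ttc9c. Of these, MSTRG.2751.7 ran from 0 to 152.5 TPM, the highest being saline-sired library 5, where Gng3 itself was at 103.5 TPM. With the 2 such models that hold the internal exon added, Gng3 ranged over 2.19-fold across libraries (3.70-fold without them), and the order of the group means turned. The mean was then 202.8 ± 52.3 TPM in morphine-sired and 213.0 ± 53.7 TPM in saline-sired rats, beside 160.5 ± 59.0 TPM in morphine-sired and 139.9 ± 48.7 TPM in saline-sired rats without the added models (SD, n = 6 each). Models of Bscl2 on the opposite strand overlap the Gng3 model by up to 1504 bases, and the sources used here do not say whether strand was kept, so reads of the 2 genes cannot be told apart there.

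**Figure D3:**
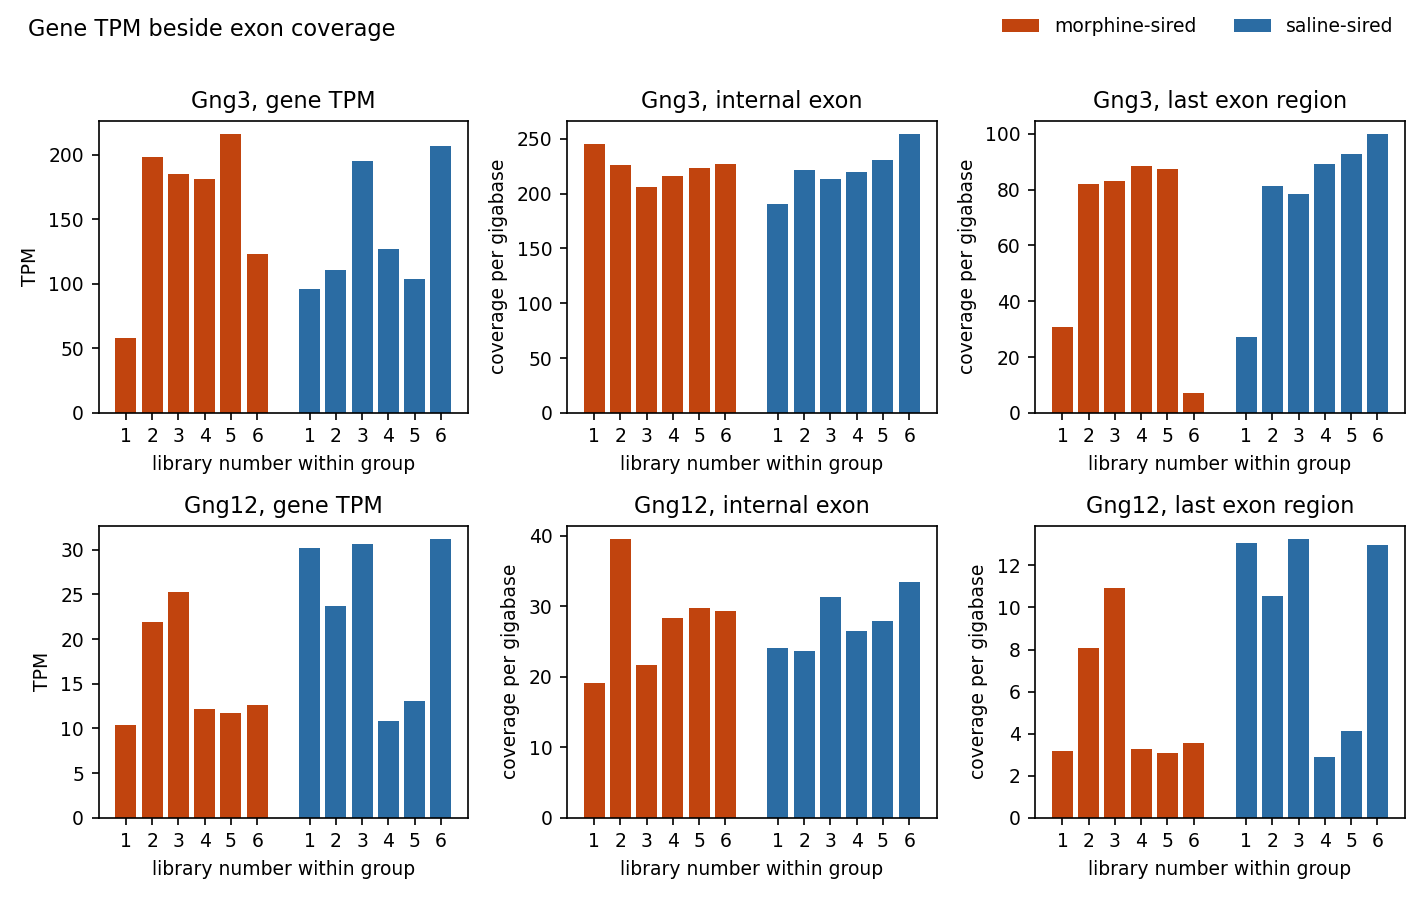
Gene TPM (left), coverage of 1 internal exon (middle) and coverage of the last exonic region (right), the coverages per gigabase of depth, for Gng3 (top) and Gng12 (bottom); each bar is 1 library, morphine-sired left. The internal-exon bars are more even than the TPM bars for both genes, and for Gng12 the last-region bars follow the TPM.

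Gng12 (chr4:97635186-97763527, plus strand), a gamma subunit found in many tissues, lay at 2 levels that cut across the groups. It stood at 22.0 and 25.3 TPM in morphine-sired libraries 2 and 3 and at 10.3 to 12.6 TPM in the other 4 morphine-sired libraries, against 23.7 to 31.2 TPM in saline-sired libraries 1, 2, 3 and 6 and 10.8 and 13.1 TPM in saline-sired libraries 4 and 5. The group means were 15.7 ± 6.27 TPM in morphine-sired and 23.3 ± 9.22 TPM in saline-sired rats (SD, n = 6 each). The log2 difference was -0.51 ± 0.30 (95% interval -1.16 to 0.14), the largest in size of the 10, and -0.16 without morphine-sired library 1 and saline-sired libraries 1 and 6. Summed over annotated transcripts alone it turned to 0.59 ± 0.34, the annotated transcript holding 5.95% of the gene's TPM.

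The 2 levels of Gng12 followed its last exonic region (chr4:97759626-97763527). The coverage there was 8.07 and 10.9 in morphine-sired libraries 2 and 3 and 3.08 to 3.54 in the other 4, and 10.5 to 13.2 in saline-sired libraries 1, 2, 3 and 6 and 2.91 and 4.12 in saline-sired libraries 4 and 5. The log2 difference of this region was -0.70 ± 0.37. The internal exon next to it (chr4:97757961-97758079) had a coverage of 19.2 to 39.5 in morphine-sired and 23.6 to 33.5 in saline-sired libraries, with the libraries of the 2 levels overlapping, and a log2 difference of -0.02 ± 0.15 (95% interval -0.33 to 0.29). Exons further upstream were opposite in sign to the gene. The difference was 0.29 ± 0.19 at chr4:97657671-97657728 and 0.30 ± 0.21 at chr4:97685531-97685583. Over the first assembled region (chr4:97635186-97635488) it was 0.19 ± 0.14.

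The other gamma genes were steadier. Gng5 (chr2:252359976-252368473, plus strand), a small gamma subunit expressed in most tissues, had the smallest p of the 10. It stood at 20.9, 19.5, 22.3, 20.2, 24.2 and 24.2 TPM in morphine-sired libraries 1 to 6 and at 20.9, 18.9, 18.6, 21.1, 20.3 and 18.0 TPM in saline-sired libraries 1 to 6. Morphine-sired libraries 3, 5 and 6 lie above every saline-sired one and the other 3 overlap with them, and the log2 difference was 0.15 ± 0.07 (95% interval -0.00 to 0.30). By coverage it was 0.21 ± 0.11 over the internal exon of Gng5 and 0.02 ± 0.12 over its last exonic region, which is 1147 bases long. Gng13 (chr10:15088935-15090839, plus strand), best known from taste and retinal signalling, ran from 52.9 to 73.7 TPM with a median of 66.4 in morphine-sired libraries and from 42.4 to 67.0 TPM with a median of 60.05 in saline-sired libraries. Morphine-sired library 1 is the highest and saline-sired library 1 the lowest, and the groups overlap between them. It averaged 64.7 ± 6.92 TPM in morphine-sired and 57.9 ± 9.91 TPM in saline-sired rats, with a log2 difference of 0.17 ± 0.11, of 0.09 without saline-sired library 1 and of -0.01 ± 0.09 without morphine-sired library 1 and saline-sired libraries 1 and 6. Gng4 (chr17:90266794-90315492, minus strand), a gamma subunit found mainly in brain, ran from 38.0 to 61.3 TPM with a median of 53.0 in morphine-sired libraries and from 38.4 to 54.8 TPM with a median of 48.9 in saline-sired libraries. Its lowest values are alike in both groups. It averaged 51.9 ± 7.91 TPM in morphine-sired and 47.9 ± 6.14 TPM in saline-sired rats, with a log2 difference of 0.11 ± 0.11. This was 0.05 without saline-sired library 6, 0.06 without morphine-sired library 5, 0.20 without morphine-sired library 2, 0.24 without library 2 of both groups and 0.04 with the oligodendrocyte marker score as a term. Models of Gigyf1, Rpf1 and Chtf18 on the opposite strand overlap Gnb2, Gng5 and Gng13, and an unnamed model on the same strand overlaps Gnb4.

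Gng7 (chr7:11565650-11629509, plus strand), the gamma subunit that pairs with the alpha subunit Golf in striatal neurons, stood at 22.1, 29.6, 20.9, 19.5, 16.4 and 24.3 TPM in morphine-sired libraries 1 to 6 and at 22.3, 24.8, 21.3, 37.0, 24.9 and 21.8 TPM in saline-sired libraries 1 to 6. Saline-sired library 4 stands above all others, and the log2 difference was -0.19 ± 0.15, and -0.07 without that library or -0.11 without morphine-sired library 5. Its most alike gene was Adora2a, the adenosine receptor of striatal projection neurons, which was also highest in saline-sired library 4, at 12.3 TPM, against 3.43 to 8.32 TPM in the morphine-sired and 4.53 to 7.63 TPM in the other saline-sired libraries. Gnal, the gene of Golf, was at 103.6 TPM in that library, within the range of the others (90.0 to 118.5 TPM). Summed over annotated transcripts alone, the Gng7 difference was 0.05 ± 0.39.

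The transcript and exon measures gave no call for these genes either. Of 43 transcripts of the 10 genes, 37 passed the filter of a mean of 0.5 TPM, and 0 were called in the transcript test (limma, 50419 transcripts tested, 0.00198% called) or had an unadjusted p under 0.05, which 3.77% of all did. The 6 with the smallest p were ENSRNOT00000021358 of Gng5 (log2 difference 0.15), ENSRNOT00000075400 of Gng12 (0.59), MSTRG.21675.5 of Gng7 (0.70), MSTRG.8654.6 of Gng2 (0.74), and MSTRG.17697.2 (-0.66) and MSTRG.17697.1 (-0.88) of Gng12. Of 67 exonic regions, 56 were tested and 0 called (limma, 167518 regions tested, 0% called), with 2 at an unadjusted p under 0.05, beside 3.53% of all. These 2 are the first region of Gng5 (log2 difference 0.24) and the last of Gng13 (0.25). With 1 region taken per gene, the log2 differences ran from -0.17 to 0.21 with a median of 0.01. The region taken was the internal annotated one with the highest count of transcripts (for Gng2, its only annotated one). A transcript with more than 1 exon in a merged region counted more than once. The -0.17 is that of Gnb4, whose other internal exons ran from -0.05 to 0.06.

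**Figure D4:**
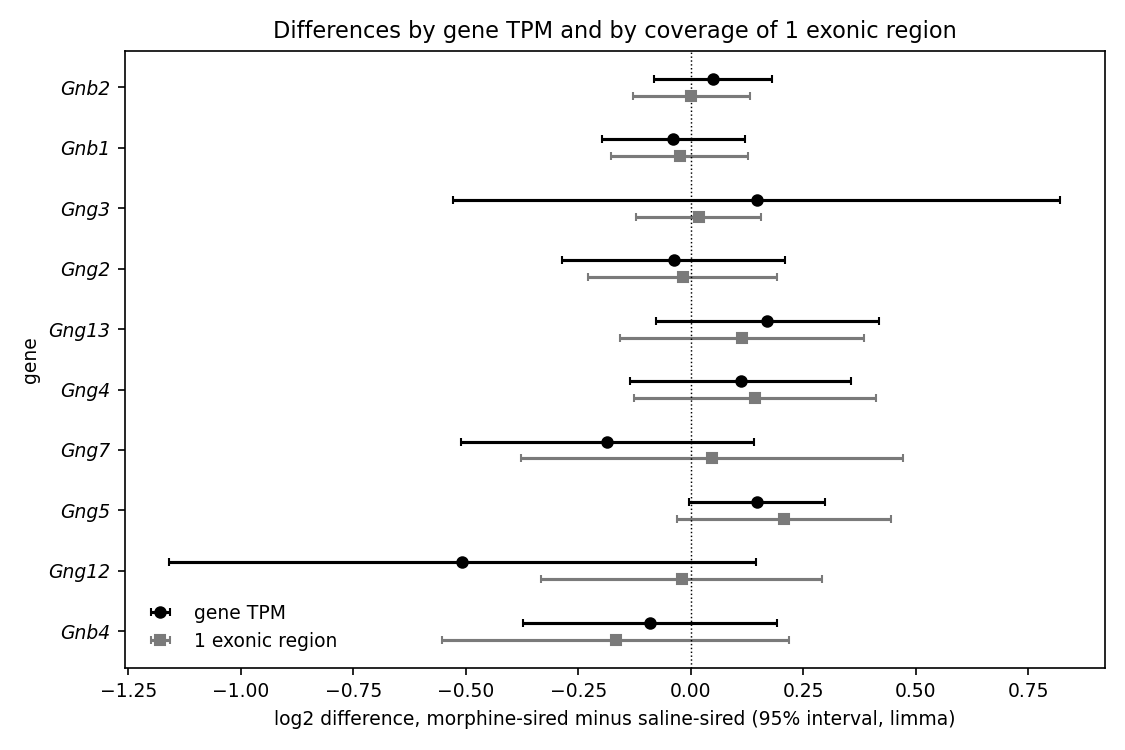
Log2 difference, morphine-sired minus saline-sired, with its 95% interval from limma, for the gene's TPM (black circles) and for the coverage of 1 exonic region of the gene (grey squares). All intervals include 0, and those of Gng3 and Gng12 are much wider in TPM than over the exon.

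Genes were also compared by likeness over the 12 libraries, among 11937 genes with a symbol and a mean of at least 5 TPM. These values are a description, since the libraries share their tissue differences. Gnb1 was most like Mgll, the enzyme that breaks down the endocannabinoid 2-arachidonoylglycerol (Pearson r = 0.965). Mgll was at 130.2 TPM in morphine-sired library 1 and at 126.6 and 77.3 TPM in saline-sired libraries 6 and 1, the 3 libraries where Gnb1 was highest. Gng4 was most like Nudt11 (r = 0.978), Gng2 like RGD1311703 (0.954), Gng5 like Cr1l (0.923), Gnb2 like RGD1305464 (0.922), Gnb4 like Kxd1 (0.921), Gng7 like Adora2a (0.912), Gng13 like Slc26a11 (0.904), Gng12 like Ddrgk1 (0.885) and Gng3 like AABR07043200.1 (0.876). Among the 45 pairs of the 10 genes themselves, r had a median of -0.11 and was positive in 19. The highest was 0.787, for Gnb1 with Gng2, whose TPM was also highest in morphine-sired library 1 and saline-sired library 1.

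**Figure D5:**
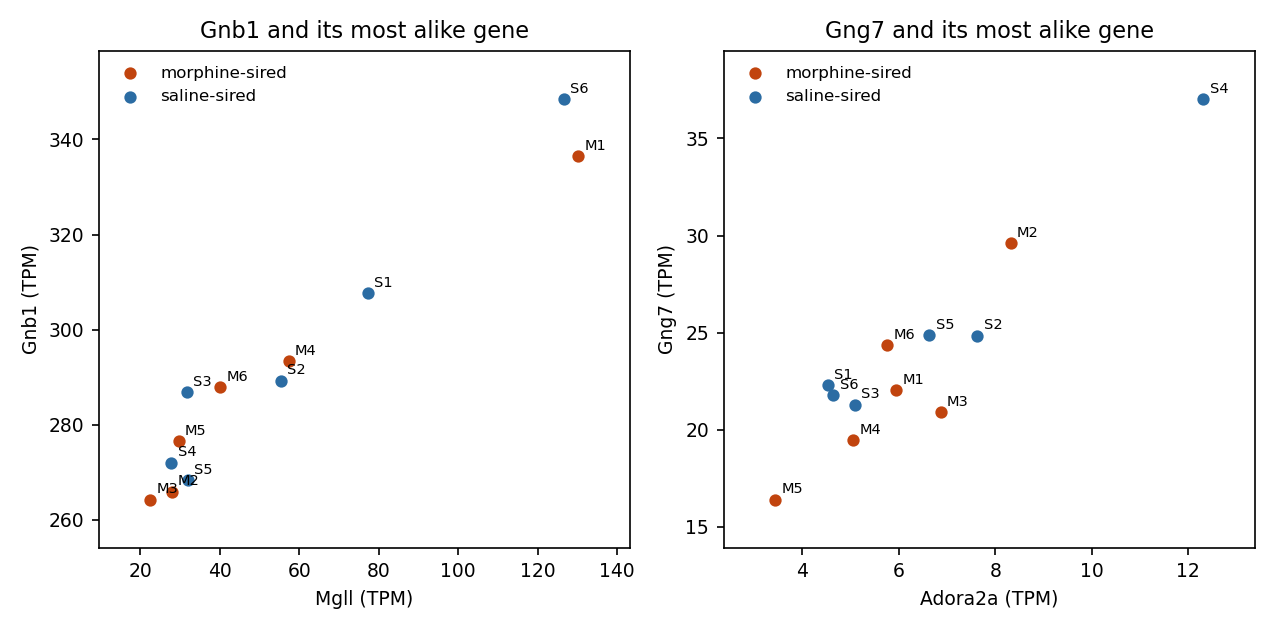
TPM of Gnb1 against Mgll (left) and of Gng7 against Adora2a (right), 1 point per library, labelled M1 to M6 for morphine-sired and S1 to S6 for saline-sired. M1, S1 and S6 lie at the upper end of the left plot, and S4 at the upper end of the right one.

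The partners of the dimer gave no call in the gene test, and Gnb5 alone among them had an unadjusted limma p under 0.05. Among the other beta and gamma genes, 6 of 7 were tested, 0 were called and 1 was higher in mean, with a median log2 difference of -0.11. Gnb5, the beta subunit that pairs with R7-type RGS proteins instead of gamma subunits, averaged 49.6 ± 2.70 TPM in morphine-sired and 55.4 ± 5.81 TPM in saline-sired rats (log2 difference -0.15 ± 0.07, and -0.61 ± 0.58 with annotated transcripts alone). Gng8 (-0.21) and Gng10 (-0.06) came next in p. Of the 13 alpha subunit genes, all tested and 0 called, 8 were higher in mean, with Gnai3 (0.09), Gnai2 (0.07) and Gna15 (0.12) smallest in p. Gnai2, an inhibitory alpha subunit and a usual partner of the dimer, averaged 300.8 TPM in morphine-sired and 287.3 TPM in saline-sired rats.

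Of the 19 effector genes, 0 were called and 8 were higher in mean, with a median of -0.03. Those smallest in p were Plcb3 (log2 difference 0.10), a phospholipase C that the dimer activates, Adcy1 (-0.25), an adenylyl cyclase that it inhibits, and Snap25 (-0.07), a release protein that it binds. Of the 11 symbols listed for binding regulators 6 were found and 5 tested, with 0 called. Grk3 (0.11) and Grk2 (0.02), receptor kinases that the dimer brings to the membrane, and Kctd5 (-0.02) were smallest in p. Of the 9 chaperone genes, 0 were called. Pdcl, the phosducin-like protein that helps assemble the dimer, was at -0.13, and the chaperonin subunits Cct8 and Cct2 at -0.07 and 0.06, Cct2 being at 0.65 ± 0.72 with annotated transcripts alone. Of the 5 genes for the lipid modification of gamma subunits, 0 were called, with Icmt (-0.14), Rce1 (0.18) and Fntb (-0.03) smallest in p.

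The start regions that RefSeq gives for these genes differ in make-up. RefSeq (build GRCr8) gave a promoter for all 10. Over the 250 bases before the start, Gng5 held 41 CG pairs, Gnb4 40 and Gng4 20, against a median of 5 over 33469 rat promoters. Gnb1 and Gng12 held 0 before their RefSeq starts, which need not be the starts used in this tissue. The assembled models with most of the TPM of these genes (63.5% for Gnb1, 62.8% for Gng12) start upstream of the annotated transcript. How those starts relate to the RefSeq ones was not tested. The motif GGGCGG, searched on both strands, was in 5 of the 10 and in 30.5% of all promoters of that length, and TGACG, searched on both strands, was in 3 of the 10 and in 18.2% of all. Both motifs hold a CG pair, so these counts overlap with the CG content. The regions of the gene with the smallest p and of the most abundant gamma gene are shown, with CG pairs in capitals, for Gng5 at chr2:238054704-238054953, plus strand, and for Gng3 at chr1:215162719-215162968, minus strand.
Gng5: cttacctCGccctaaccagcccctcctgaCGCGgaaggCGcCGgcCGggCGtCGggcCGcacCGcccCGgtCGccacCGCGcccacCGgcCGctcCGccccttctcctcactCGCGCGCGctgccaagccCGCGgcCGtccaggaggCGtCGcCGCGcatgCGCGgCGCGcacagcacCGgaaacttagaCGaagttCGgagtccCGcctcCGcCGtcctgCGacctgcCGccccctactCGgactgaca
Gng3: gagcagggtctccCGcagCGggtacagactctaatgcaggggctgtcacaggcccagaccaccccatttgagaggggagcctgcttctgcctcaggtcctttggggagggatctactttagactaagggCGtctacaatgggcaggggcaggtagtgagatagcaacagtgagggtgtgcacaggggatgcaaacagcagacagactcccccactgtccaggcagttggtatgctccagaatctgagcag
Gng5 has CG pairs throughout, while Gng3 has 3 in the same length.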

How the data were processed

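PolyA RNA was measured in 12 libraries made with an NEBNext Ultra kit, per the labels' protocols. Build Rnor_6.0 is given per the submitters' processing notes, which list HISAT2 2.2.0, StringTie 2.1.2, Trimmomatic 0.39, FastQC 0.11.9, DESeq2 1.28.1 and SAMtools 1.11 without their roles. Per the file headers, StringTie 1.3.6 wrote the deposited transcript files, which hold coverage, FPKM and TPM for 76232 transcripts, 35169 of them assembled in the series. The table of log2 values that the authors deposited paired transcripts with symbols and, in the 2 sample columns compared, matched log2(FPKM + 1) of the 41063 annotated transcripts to within 4.9e-08; its 10 other sample columns were not used. Strand and read pairing are not given in the sources used here.

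TPM was summed per gene, with assembled transcripts given to a symbol where it is the only one of its locus. Genes, transcripts and merged exonic regions with a mean of at least 0.5 entered limma (version 3.58.1, R 4.3.3; eBayes with trend, two-sided, no covariate) on log2(value + 1), which understates the change of low genes, with Benjamini-Hochberg adjustment over all of them. Coverage of a region was divided by the depth in gigabases, and 848 exons whose strand differed between files were left out. The region test was added after the data were seen. The members, the gene lists and the alternatives were chosen with earlier results of these data known. Named genes were all 10 members, the 3 of smallest p in each list, the most alike gene of each member, the 6 transcripts of smallest p and the main transcript where it matters. Gnal and the Gnb1, Gng2 and Gng3 models named for single libraries were added after their values were seen. The interval of each difference gives its precision. Other calculations used Python 3.11.15, numpy 2.4.6, pandas 2.3.3 and matplotlib 3.10.9.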

Additional observations from a re-analysis of the deposited data

Results flagged for a closer look

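In groups of 6 libraries, a library was singled out where its gap to the nearest other made up most of the group's range (Dixon's test at the 95% level, which chance passes in about 1 in 20 groups), over 60 groups of values. Gng7 stood at 37.0 TPM in saline-sired library 4, against 21.3 to 24.9 TPM in the other 5 saline-sired libraries. The coverage of its internal exon was also highest in that library, at 25.1 per gigabase, against 10.3 to 15.5 in the others. Gng13 held 17.6% of the gamma TPM in morphine-sired library 1, against 11.3% to 12.9% in the other 5 morphine-sired libraries. The gamma TPM counts the annotated Gng3 transcript alone, which was lowest in that library, at 58.3 TPM. With assembled models of its locus added, Gng3 was at 125.4 TPM there, still the lowest of the morphine-sired libraries, so the Gng13 share would be smaller. The coverage of the internal Gnb1 exon was 339.1 per gigabase in saline-sired library 6, against 262.2 to 284.7 in the other saline-sired libraries. That of Gnb2 was 130.4 in morphine-sired library 2, against 147.5 to 155.5 in the other morphine-sired libraries.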

How the results depend on the processing

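None of the 10 genes, their transcripts or their exonic regions was called under any setting (lowest adjusted limma p 0.492 over 26 gene settings, 0.922 over 16 transcript settings and 0.823 over 15 region settings). Over all genes, 1 was called without saline-sired libraries 1 and 6 and morphine-sired library 1 together, and 0 to 1 with each library left out. Over all transcripts, 1 was called, with 0 under no filter, 0 on FPKM and 0 to 2 with each library left out. Each log2 difference named was set against its value under every alternative, so that 1 gene enters many comparisons. Of these comparisons, 25 turned sign and 702 kept their direction and side of the threshold. With annotated transcripts alone Gng12 turned to 0.59, Gng7 to 0.0521 and Rce1 to -0.0170. Without saline-sired 1, saline-sired 6 and morphine-sired 1, Gng2 was 0.00843, Gng13 -0.0121, Grk2 -0.00271 and Kctd5 0.0228, and the internal exons of Gng3 and Gng12 were at -0.0116 and 0.097. Gng2 was 0.0323 without saline-sired 2 and morphine-sired 2, Gnb4 was 0.00816 with a serotonergic score and Grk2 -0.00173 with an oligodendrocyte score as a term. With each library left out in turn, Gnb1 ran from -0.0851 to 0.00983 (turning without saline-sired 6), Gng2 from -0.103 to 0.0293 (without saline-sired 1 or morphine-sired 2), Grk2 from -0.00472 to 0.0460 (without morphine-sired 1 or saline-sired 4), Kctd5 from -0.0604 to 0.000435 (without morphine-sired 1) and Fntb from -0.0567 to 0.00667 (without morphine-sired 3). The internal exon of Gng3 ran from -0.0250 to 0.0572 and that of Gng12 from -0.124 to 0.0773. With annotated transcripts alone the shares became 6.66% for Gnb1, 92.2% for Gnb2 and 0.198% for Gnb4 of beta, and 12.2% for Gng4, 5.08% for Gng5, 2.196% for Gng7, 0.280% for Gng12 and 7.04% for Gng13 of gamma, because models that hold most of several genes are then left out. No paired analysis was possible because the labels give no number shared between the groups.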
